A study of Rattus norvegicus with 12 samples.

Results

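The T cell receptor complex and its signaling chain were represented on the arrays by 9 genes (Cd3e, Cd3g, Cd247, Cd4, Cd8b, Lck, Zap70, Lcp2 and Icos) of 15159 named rat genes, and by 9 of 30367 probes. The members were chosen by name, as probes whose RefSeq accession belongs to one of these genes. Each member had 1 probe, with 10 spots on each array for Cd3g and 2 for the other 8 genes. RNA of sciatic nerve, dorsal root ganglia (DRG) and dorsal spinal cord was measured on 12 single-colour Agilent arrays, and each array held a pool of 3 rats per the labels. Wild-type rats were Sprague-Dawley, and nude rats were athymic animals of the genotype rnu-/- (Hsd:RH-Foxn1rnu), which have a mutated Foxn1 gene and no functional thymus. All rats were 8-week adult females per the labels, and in all of them the left sciatic nerve was injected with 50 μg of the myelin basic protein peptide MBP84-104 in 5 μL of PBS. The 6 groups of each rat type were the injected left nerve, the right nerve given PBS, the left DRG, the right DRG, the left dorsal lumbar cord and the left dorsal cord rostral to it. The right nerve, the right DRG and the rostral cord came from injected rats, so no group was free of the peptide.

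Wild-type tissue was collected on day 12 and nude tissue on day 7 per the labels, whereas the text of the study gives the same time for both rat types and describes heterozygous controls. Rat type, strain and day therefore cannot be told apart. The slide of 8 arrays held all nude samples together with the injected and PBS nerve of wild-type rats, and a slide of 4 arrays held wild-type DRG and cord, where slide therefore cannot be told apart from rat type. Every group had 1 array, no difference has a replicate check, and no p-value is given. The median probe signal ranged from 15.4 arbitrary units in the injected nude nerve to 74.9 in the wild-type rostral cord, and between 55.1% and 73.6% of probes were well above background on an array. Each tissue carried its defining markers. All 7 Schwann cell markers were well above background in nerve, with a summed level from 1760 to 3599 times the array median there against 94.2 to 409 in cord. The sensory neuron sodium channel Scn10a had signals from 755 to 2282 in DRG against 2.3 to 2.7 in nerve, and the inhibitory neuron transporter Slc32a1 from 4027 to 6000 in cord. The Foxn1 probe had signals from 18.4 to 61.3 in wild-type and from 7.42 to 24.6 in nude tissue and was well above background on 11 of 12 arrays. Where this probe lies relative to the mutation is not known from the files, so it does not check the rat type.

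A T cell recognises peptide on MHC molecules with an antigen receptor that carries no signaling domain of its own and relies on the CD3 chains and the zeta chain, encoded by Cd247. The coreceptors CD4 and CD8 bring the kinase Lck to the receptor, Lck phosphorylates the CD3 and zeta tails, and the kinase ZAP-70 docks there and phosphorylates adaptors such as SLP-76, encoded by Lcp2. ICOS is a costimulatory receptor that appears on activated T cells. Several members are not restricted to T cells: rat macrophages carry CD4, natural killer (NK) cells carry the zeta chain and ZAP-70, and SLP-76 is found in macrophages, mast cells and platelets.

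RefSeq promoter sequences of the rat assembly GRCr8, which is newer than the build of the array design, were at hand for 6 of the 9 members, with 7 entries because Lck has 2 start sites. Sequences for 4 genes are shown, because Cd3e and Cd3g are neighbours on chromosome 8 yet differed in detection, and because Cd247 and Icos were at least 2-fold higher in the injected than in the PBS nerve of wild-type rats. Each line holds the 250 bases before the start site, 5′ to 3′ on the strand of the gene, and capitals mark the ETS motif GGAAGT or the Runx motif TGTGGT on either strand.
Cd3e, chr8:54211771-54212020, minus strand: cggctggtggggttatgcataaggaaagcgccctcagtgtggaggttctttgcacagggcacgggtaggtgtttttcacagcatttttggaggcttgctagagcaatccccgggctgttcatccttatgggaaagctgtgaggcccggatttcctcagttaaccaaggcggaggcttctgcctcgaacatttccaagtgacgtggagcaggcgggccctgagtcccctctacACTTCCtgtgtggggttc
Cd3g, chr8:54183919-54184168, minus strand: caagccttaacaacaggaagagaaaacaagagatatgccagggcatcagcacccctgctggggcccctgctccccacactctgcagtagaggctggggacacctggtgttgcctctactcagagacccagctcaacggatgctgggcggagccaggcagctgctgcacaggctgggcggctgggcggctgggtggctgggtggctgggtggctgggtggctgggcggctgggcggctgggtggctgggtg
Cd247, chr13:80576019-80576268, plus strand: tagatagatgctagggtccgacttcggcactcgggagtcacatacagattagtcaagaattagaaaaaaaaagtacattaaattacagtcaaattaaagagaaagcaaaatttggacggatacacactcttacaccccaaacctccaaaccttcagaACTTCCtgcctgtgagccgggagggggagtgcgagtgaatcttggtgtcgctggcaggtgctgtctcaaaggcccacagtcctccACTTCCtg
Icos, chr9:69877549-69877798, plus strand: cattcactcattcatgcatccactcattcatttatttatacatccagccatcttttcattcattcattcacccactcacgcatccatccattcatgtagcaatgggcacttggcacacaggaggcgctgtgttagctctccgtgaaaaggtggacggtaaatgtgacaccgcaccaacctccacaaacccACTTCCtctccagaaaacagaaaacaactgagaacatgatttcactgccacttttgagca
The letters GGAAGT, on either strand, were in 5 of the 7 member entries and in 19.2% of 33469 rat promoter windows of this length. Those of the Runx motif were in 1 of 7 entries, that of an Lck start, and in 14.5% of all windows. The E-box letters CANNTG, which read the same on both strands, were in 6 of 7 and in 65.5%. Matches of different motifs can share end letters. The counts describe letters only, and binding of a factor was not measured.

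The members were dim. Over the 12 arrays their probes lay between percentiles 4.0 and 64.2 of all probes on an array, and the highest member signal was 156, that of Cd3g in the PBS nerve of nude rats. A probe was taken as well above background where at least 50% of its spots carried that flag of the scanner software. By this measure 8 of 9 members were detected in the injected nerve and the left DRG of wild-type rats, where 63.6% and 73.6% of all probes were. The wild-type lumbar cord had 7 detected members, with 67.9% of all probes. The wild-type PBS nerve, right DRG and rostral cord had 6 each, with 61.6%, 65.7% and 70.8% of probes. In nude rats 7 were detected in the PBS nerve, with 66.6% of probes, and 5 each in the injected nerve, the right DRG and the lumbar cord, with 55.1%, 57.6% and 68.2%. The nude left DRG and rostral cord had 3 each, with 60.5% and 65.2%. Members were thus also detected in rats without a thymus.

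**Figure D1:**
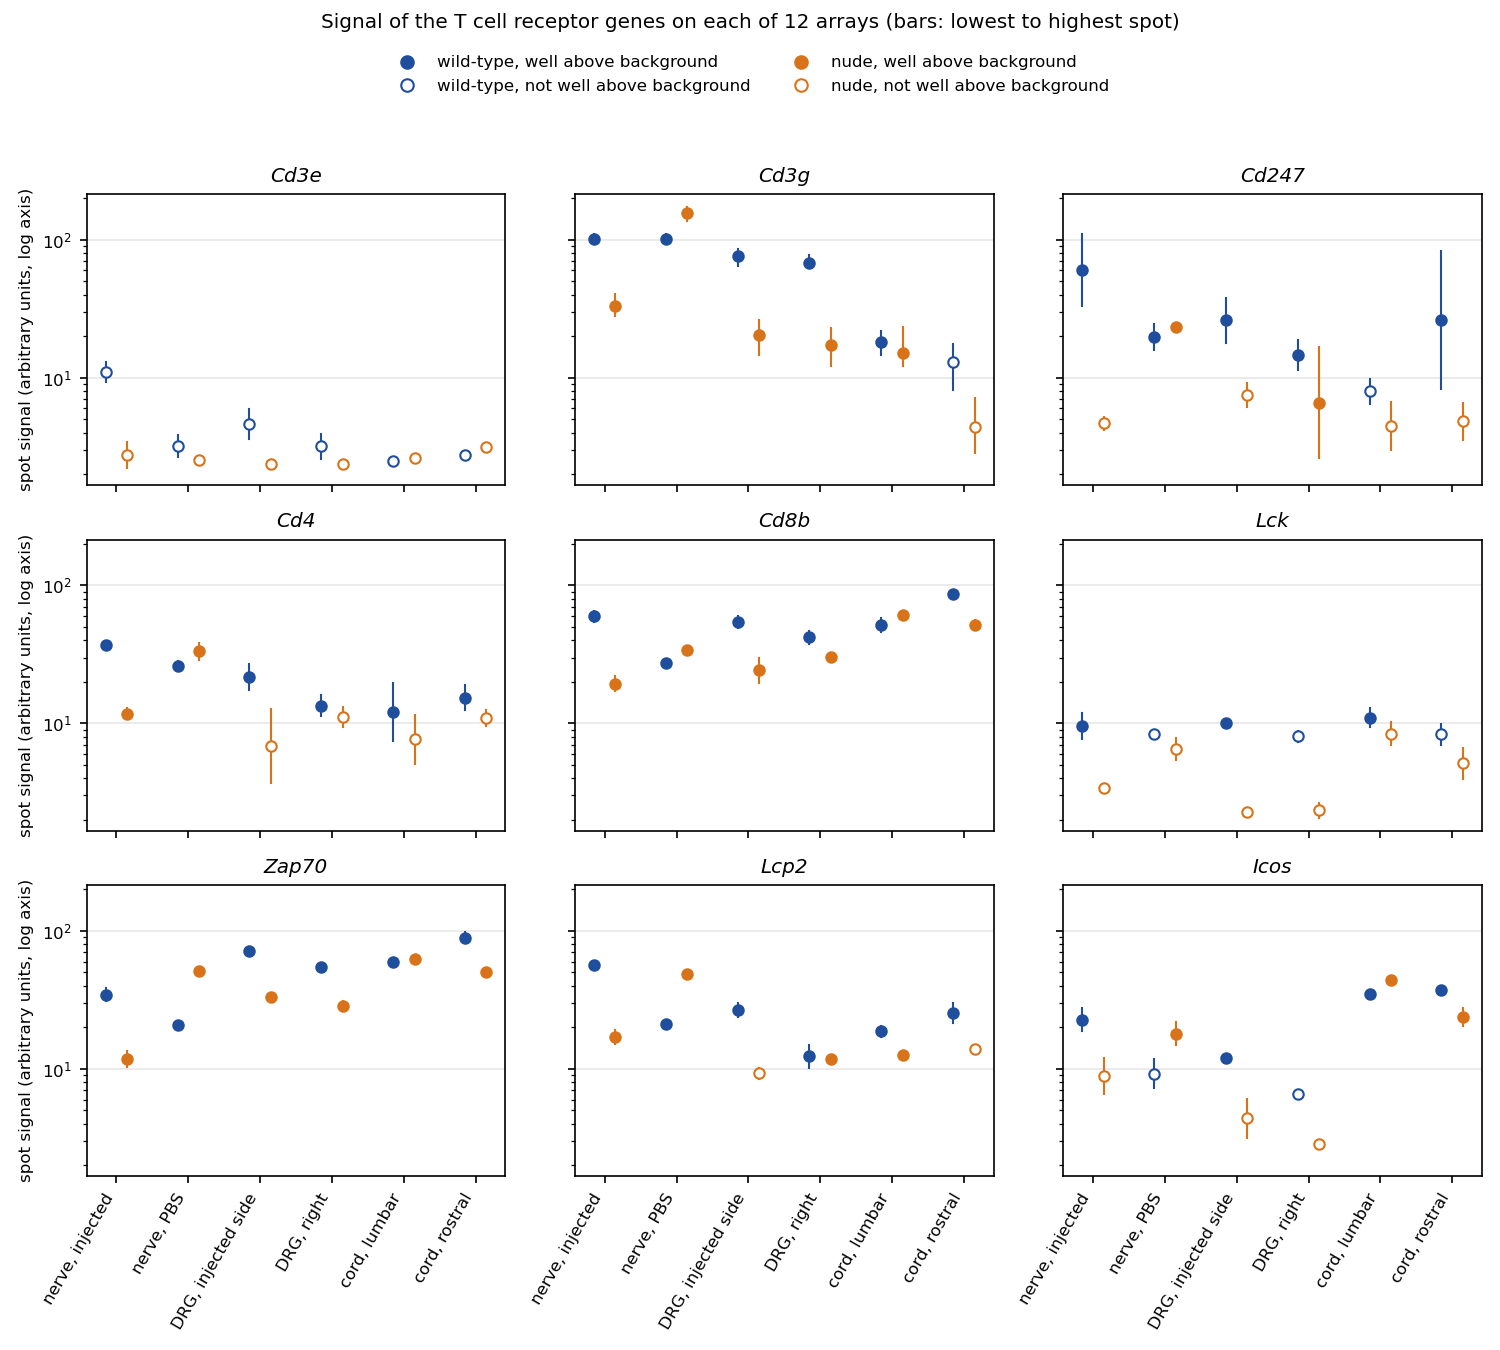
Signal of each member (vertical axis, arbitrary units, log scale) at each of 6 tissue positions (horizontal axis) in wild-type (blue) and nude (orange) rats. Points are the mean of the spots on 1 array, bars run from the lowest to the highest spot, and open points were not well above background. Cd8b and Zap70 are filled on all 12 arrays and Cd3e on none. Signals are not corrected for the brightness of each array, whose median ranged from 15.4 to 74.9.

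Of the CD3 chains, Cd3e did not rise well above background on any of the 12 arrays. The highest signal was 11.0 in the injected nerve of wild-type rats, where its spots gave 9.25 and 13.0, and its other 11 signals lay between 2.36 and 4.59. Cd3e, which encodes the epsilon chain, therefore gave no ratio in any comparison.

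Cd3g, which encodes the gamma chain, was the member with the most spots and was detected on 10 of 12 arrays. In nerve its signal was 101 on both wild-type arrays, 33.1 in the injected nude nerve and 156 in the PBS nude nerve. In DRG it was 76.1 on the left and 68.5 on the right in wild-type rats, against 20.6 and 17.4 in nude rats. In cord it was 18.3 in the lumbar and 13.1 in the rostral part of wild-type rats, against 15.1 and 4.41 in nude rats, and neither rostral value was well above background. The array medians also differed, so levels were compared after subtracting each array's median on the log2 scale. On that centred scale Cd3g ran from 1.11 to 1.67 in the 4 nerve arrays, from −0.17 to 0.86 in the 4 DRG arrays and from −3.61 to −1.57 in the 4 cord arrays. The 3 tissues did not overlap, although the nerve arrays no longer all lay above the rest with normexp background correction. This setting models the background of each spot and adds an offset of 50 to the signals. The offset draws ratios of dim signals toward 0, so the members' ratios shrink with this setting.

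Between rat types, the centred Cd3g log2 ratio of wild-type minus nude was 0.37 in the injected nerve, −0.06 in the PBS nerve, 0.55 in the left DRG and 0.32 in the lumbar cord. In all 4 the spots of the compared arrays overlapped, and the PBS nerve ratio was above 0 under 3 of 10 alternative settings, such as centring on the 75th percentile of each array in place of its median. In the right DRG Cd3g was 2.05-fold higher in wild-type than in nude rats, with a log2 ratio of 1.03 that ran from 0.49 to 1.72 over the extremes of the spots and from 0.43 to 1.09 over the alternatives. The injected minus PBS nerve ratio of Cd3g was −0.12 for wild-type and −0.56 for nude rats, and the left minus right DRG ratio was −0.46 and 0.02. In cord the lumbar part of nude rats had at least 2.07-fold more Cd3g signal than the rostral part. In wild-type rats the ratio was 1.92-fold, over a rostral value that was not well above background. With normexp the log2 ratio in nude rats was 0.17. In these bulk samples, fewer cells of a type and less RNA per cell cannot be told apart.

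Cd247, which encodes the zeta chain, was detected on 5 of 6 wild-type and 2 of 6 nude arrays. Its signal in nerve was 60.5 in the injected and 19.8 in the PBS nerve of wild-type rats, against 4.66, not well above background, and 23.4 in nude rats. In DRG it was 26.0 on the left and 14.7 on the right in wild-type rats, against 7.50, not well above background, and 6.61 in nude rats. In cord it was 8.01 in the lumbar and 26.1 in the rostral part of wild-type rats, against 4.48 and 4.85 in nude rats, and of these 4 values that of the wild-type rostral cord alone was well above background. The 2 spots of this probe did not always match. They gave 33.4 and 109 in the injected wild-type nerve, 8.31 and 82.3 in the wild-type rostral cord, and 2.63 and 16.6 in the right DRG of nude rats.

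In the injected nerve Cd247 was at least 4.97-fold higher in wild-type than in nude rats, a log2 ratio of at least 2.31 after centring, and all spots of the wild-type array were brighter than those of the nude array. With normexp the log2 ratio was 0.52, and it could not be computed where both arrays had to be well above background. In the PBS nerve the ratio was 0.33. Within wild-type rats the injected nerve had 2.80-fold more Cd247 signal than the PBS nerve, a log2 ratio of 1.49 with spot extremes of 0.32 and 2.65, and in nude rats the ratio was −0.50 or lower. In the rostral cord Cd247 was at least 2.67-fold higher in wild-type than in nude rats. Within wild-type rats Cd247 was 2.37-fold lower in the lumbar than in the rostral part, and the lumbar value was not well above background. Both cord values rest on the bright spot of 82.3, their spot sets overlapped, and neither could be computed when every spot had to be well above background.

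**Figure D2:**
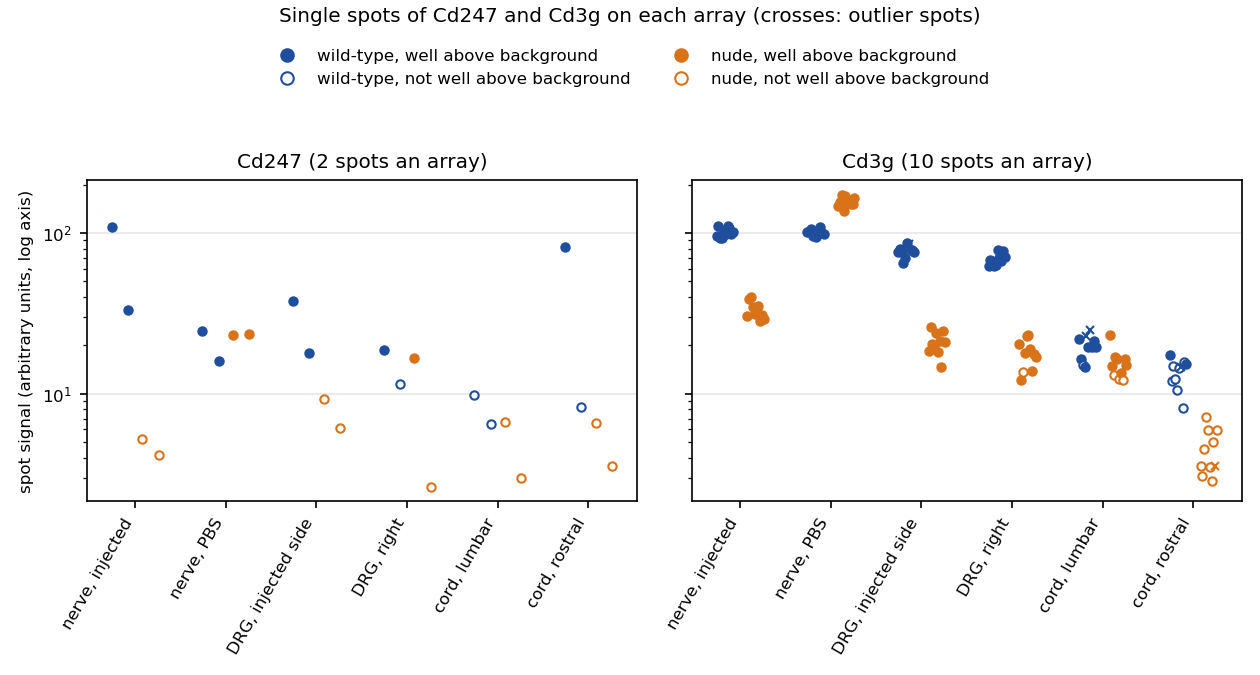
Signal of every spot (vertical axis, arbitrary units, log scale) of the Cd247 probe and the Cd3g probe at each tissue position, in wild-type (blue) and nude (orange) rats. Filled points were well above background, open points were not, and crosses are spots with an outlier flag. The 2 Cd247 spots lie far apart in the wild-type rostral cord (8.31 and 82.3), whereas the 10 Cd3g spots of an array cluster in nerve.

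Of the coreceptors, Cd4 was detected on all 6 wild-type arrays and on 2 of 6 nude arrays, those of the nerve. Its signal was 37.2 in the injected and 26.0 in the PBS nerve of wild-type rats, against 11.8 and 33.2 in nude rats. It ranged from 12.0 to 21.8 in the wild-type DRG and cord, and from 6.82 to 11.1 in the same nude tissues, where no value was well above background. In the injected nerve the centred Cd4 log2 ratio of wild-type minus nude was 0.43, and −0.02 with normexp background correction. It was 0.21 in the PBS nerve, 0.34 in the left DRG, 0.69 in the lumbar cord and 0.02 in the rostral cord. In these DRG and cord ratios the nude value was not well above background. No ratio was formed in the right DRG, where the undetected nude value lay above the wild-type value, at −0.82 against −1.49 after centring. Injected minus PBS nerve gave 0.39 in wild-type and 0.18 in nude rats, where cyclic loess, a normalization that bends with signal strength, gave −0.10. None of these Cd4 ratios reached 2-fold.

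Cd8b, which encodes the beta chain of CD8, was well above background on all 12 arrays, nude tissues included. Its signal was 59.6 in the injected and 27.6 in the PBS nerve of wild-type rats, against 19.4 and 33.7 in nude rats. In DRG it was 54.0 and 41.9 on the left and right of wild-type rats, against 24.2 and 30.2 in nude rats. In cord it was 51.7 in the lumbar and 86.2 in the rostral part of wild-type rats, against 61.3 and 51.6 in nude rats. On the centred scale Cd8b lay between −0.54 and 0.72 over all arrays and the 3 tissues overlapped. Its injected minus PBS nerve log2 ratio was 0.99, or 1.98-fold, in wild-type rats and 0.87, or 1.83-fold, in nude rats, just under the 2-fold threshold in both. With the 75th percentile both passed it, with 1.06 and 1.17. The wild-type minus nude ratio was 0.39 in the injected nerve, 0.28 in the PBS nerve, −0.18 and −0.47 in the left and right DRG, and −0.20 and 0.26 in the lumbar and rostral cord.

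Cd8a, which encodes the alpha chain and with Cd8b forms the usual CD8 coreceptor of cytotoxic T cells, behaved otherwise. It is no member and was picked after its values were seen. Cd8a was well above background on 1 of 12 arrays, that of the injected wild-type nerve, with a signal of 28.7 and spots of 27.9 and 29.6. The other 11 arrays lay between 2.15 and 4.74. This put Cd8a at least 4.46-fold higher in the injected than in the PBS nerve of wild-type rats and at least 2.36-fold higher in the wild-type than in the nude injected nerve. Over the alternatives these log2 ratios went as low as 0.48 and 0.21, under 2-fold. The delta chain of CD3, Cd3d, also picked after its values were seen, was well above background on all 12 arrays with signals from 109 to 305, including 211 and 183 in the nude lumbar and rostral cord. Sequences of the probes were not examined, so which transcripts each one binds was not checked.

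**Figure D3:**
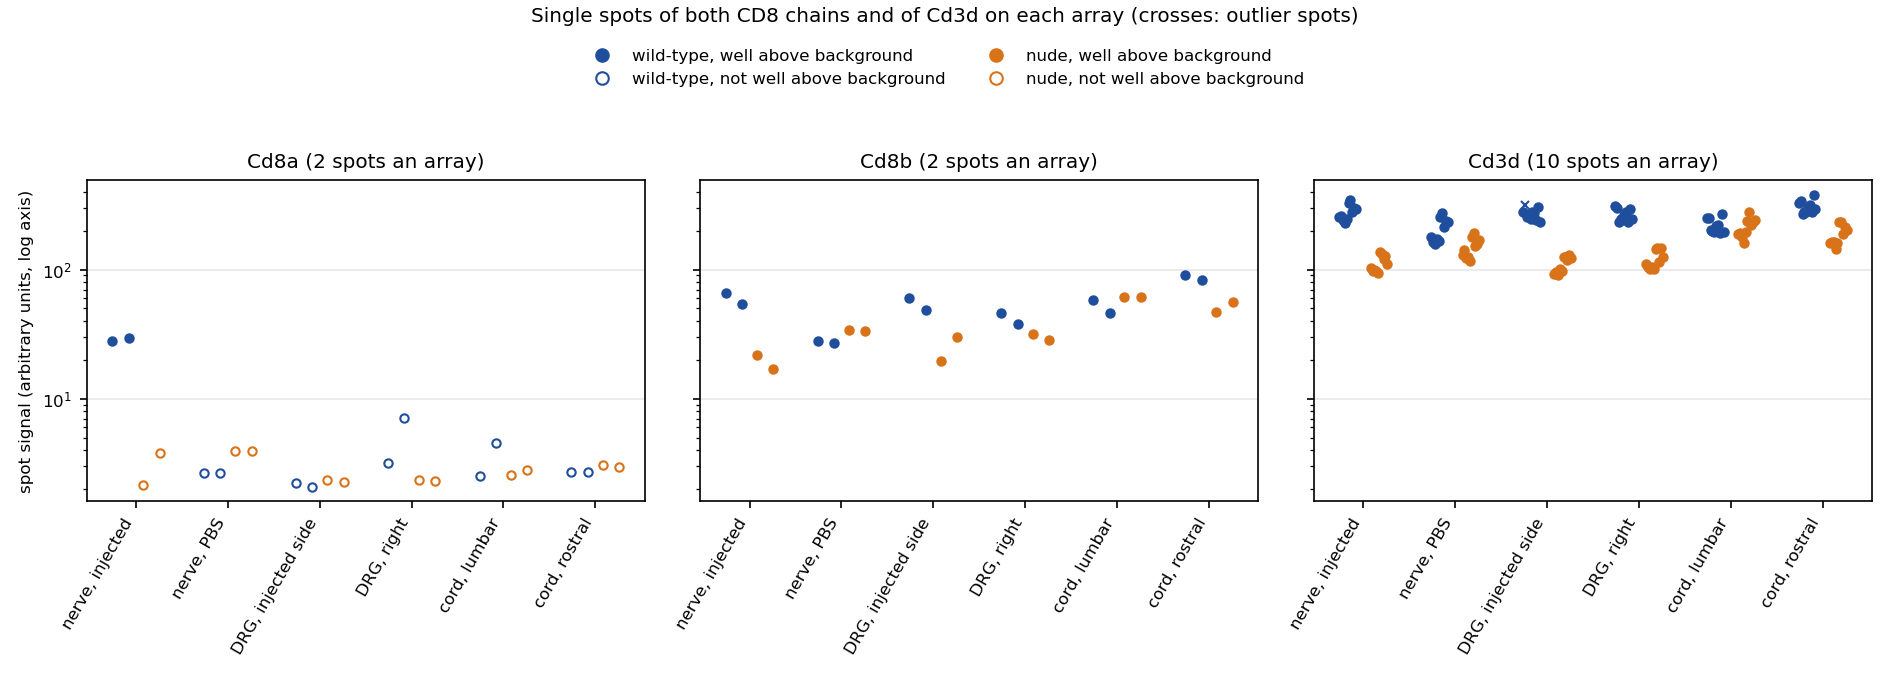
Signal of every spot (vertical axis, arbitrary units, log scale) of the probes for Cd8a, Cd8b and Cd3d at each tissue position, in wild-type (blue) and nude (orange) rats. Filled points were well above background, open points were not, and crosses are spots with an outlier flag. Cd8a is filled in the injected wild-type nerve alone (28.7), whereas Cd8b and Cd3d are filled at all positions in both rat types.

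Of the kinases, Lck was well above background on 3 of 6 wild-type arrays and on none of 6 nude arrays. Its signal was 9.57 in the injected wild-type nerve, 10.0 in the left wild-type DRG and 11.0 in the wild-type lumbar cord. The other wild-type values lay between 8.03 and 8.37 and the nude values between 2.29 and 8.39. These signals are close to the lowest that were well above background, from 4.44 to 7.05 over the arrays. The only Lck ratio between rat types that could be formed was 0.43 in the lumbar cord. Injected minus PBS nerve gave 0.07 in wild-type rats, so 2-fold was reached in neither. Both were taken over a value that was not well above background.

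Zap70 was well above background on all 12 arrays. Its signal was 34.6 in the injected and 20.9 in the PBS nerve of wild-type rats, against 11.8 and 51.1 in nude rats. In DRG it was 72.0 and 55.0 on the left and right of wild-type rats, against 33.1 and 28.5 in nude rats. In cord it was 59.9 in the lumbar and 89.4 in the rostral part of wild-type rats, against 62.2 and 50.5 in nude rats. After centring Zap70 spanned −0.66 to 0.06 in nerve, 0.32 to 0.55 in DRG and −0.09 to 0.26 in cord, so that the DRG arrays were highest. With normexp background correction they were not. The wild-type minus nude log2 ratio was 0.32 in the injected nerve, with spot sets that overlapped, and −0.72 in the PBS nerve, with spot sets that did not. It was −0.22, 0.00, −0.01 and 0.35 in the left DRG, right DRG, lumbar cord and rostral cord. Injected minus PBS nerve gave 0.60 in wild-type and −0.44 in nude rats. None of these Zap70 ratios reached 2-fold.

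Lcp2, the adaptor SLP-76, was well above background on all 6 wild-type and on 4 of 6 nude arrays. Its signal was 56.8 in the injected and 21.0 in the PBS nerve of wild-type rats, against 16.9 and 48.8 in nude rats. In DRG it was 26.8 and 12.3 on the left and right of wild-type rats, against 9.28, not well above background, and 11.9 in nude rats. In cord it was 18.8 in the lumbar and 25.5 in the rostral part of wild-type rats, against 12.6 and 14.0 in nude rats, the last not well above background. Lcp2 was 2.48-fold higher in the injected than in the PBS nerve of wild-type rats, a log2 ratio of 1.31 with spot extremes of 1.22 and 1.40. In nude rats the same ratio was 0.15, and the wild-type ratio minus the nude ratio was 1.16, with a range of 0.41 to 1.22 over the other scalings. Between rat types the log2 ratio was 0.51 in the injected nerve and −0.65 in the PBS nerve. It was 0.19 in the left DRG, −0.89 in the right DRG, 0.62 in the lumbar cord and 0.39 in the rostral cord. In the left DRG and the rostral cord the nude value was not well above background. The 2 nerve ratios pointed in opposite directions and neither reached 2-fold.

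Icos, the costimulatory receptor, was well above background in all 4 cord arrays, in the injected nerve and left DRG of wild-type rats and in the PBS nerve of nude rats. Its signal was 22.8 in the injected and 9.23 in the PBS nerve of wild-type rats, against 8.91 and 18.0 in nude rats. In DRG it was 12.0 and 6.56 on the left and right of wild-type rats, against 4.40 and 2.83 in nude rats. In cord it was 34.9 in the lumbar and 37.3 in the rostral part of wild-type rats, against 44.1 and 23.8 in nude rats, so that the highest Icos signal was in the nude lumbar cord. Icos was 2.26-fold higher in the injected than in the PBS nerve of wild-type rats, where the PBS value was not well above background. Between rat types its log2 ratio was 0.12 in the injected nerve, −0.40 in the PBS nerve, −0.30 in the lumbar cord and 0.17 in the rostral cord. The nude value of the injected nerve and the wild-type value of the PBS nerve were not well above background.

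Wild-type and nude rats were compared to see whether the T cell receptor genes were lower where mature T cells are lacking. In the injected nerve all 7 members that could be compared had a wild-type minus nude log2 ratio above 0, with a median of 0.39 against 0.11 over all genes, of which 64.1% were above 0. Cd247 and Icos were detected there in wild-type rats alone, and such a ratio was kept only where it was above 0. Among members well above background on both arrays 5 of 5 were above 0, with a median of 0.39. For all genes so filtered the median was 0.08, and 60.8% were above 0. Cd247 alone of the 7 was at least 2-fold apart. Over all 10101 genes compared there, 3.57% were at least 2-fold apart. With normexp background correction 6 of the 7 members and 88.6% of all genes were above 0, and the members' median of 0.18 lay below the 0.52 of all genes, so the order of members and all genes turned with that scaling. In the PBS nerve 3 of 7 members were above 0, with a median of −0.06 against −0.23, and none was at least 2-fold apart, against 4.59% of all genes. With the 75th percentile 4 of 7 members were above 0, with a median of 0.12 against −0.05. Both nerve comparisons had all 4 arrays on 1 slide.

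In DRG, 4 of 6 members had a wild-type minus nude ratio above 0 on the left, with a median of 0.26 against 0.03 over all genes, and none was 2-fold apart, against 4.24% of all genes. Where both arrays or every spot had to be well above background, 1 of 3 was above 0, with a median of −0.18. On the right 3 of 5 were above 0, with a median of 0.00 against 0.01. Cd3g alone was 2-fold apart there, against 4.31% of all genes. In the lumbar cord 4 of 7 were above 0 with a median of 0.32 against 0.01, and none was 2-fold apart, against 2.55% of all genes. Where both arrays had to be well above background 2 of 5 were above 0, with a median of −0.01, and where every spot had to be, 1 of 4 with −0.11. In the rostral cord 6 of 6 were above 0 with a median of 0.31 against 0.01, and Cd247 alone was 2-fold apart, against 1.79% of all genes. Cd247, Cd4 and Lcp2 were detected there in wild-type rats alone, so their sign was fixed by detection. Among members well above background on both arrays 3 of 3 were above 0, with a median of 0.26 against −0.00. With normexp background correction the members' median was −0.02 against 0.39 over all genes in the left DRG, −0.07 against 0.28 in the right DRG, 0.08 against 0.01 in the lumbar cord and 0.06 against 0.12 in the rostral cord. In the left DRG and the rostral cord the members' median thus lay above that of all genes in the reported setting and below it with normexp. With it 3 members could be compared in the left DRG and 4 in the rostral cord.

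**Figure D4:**
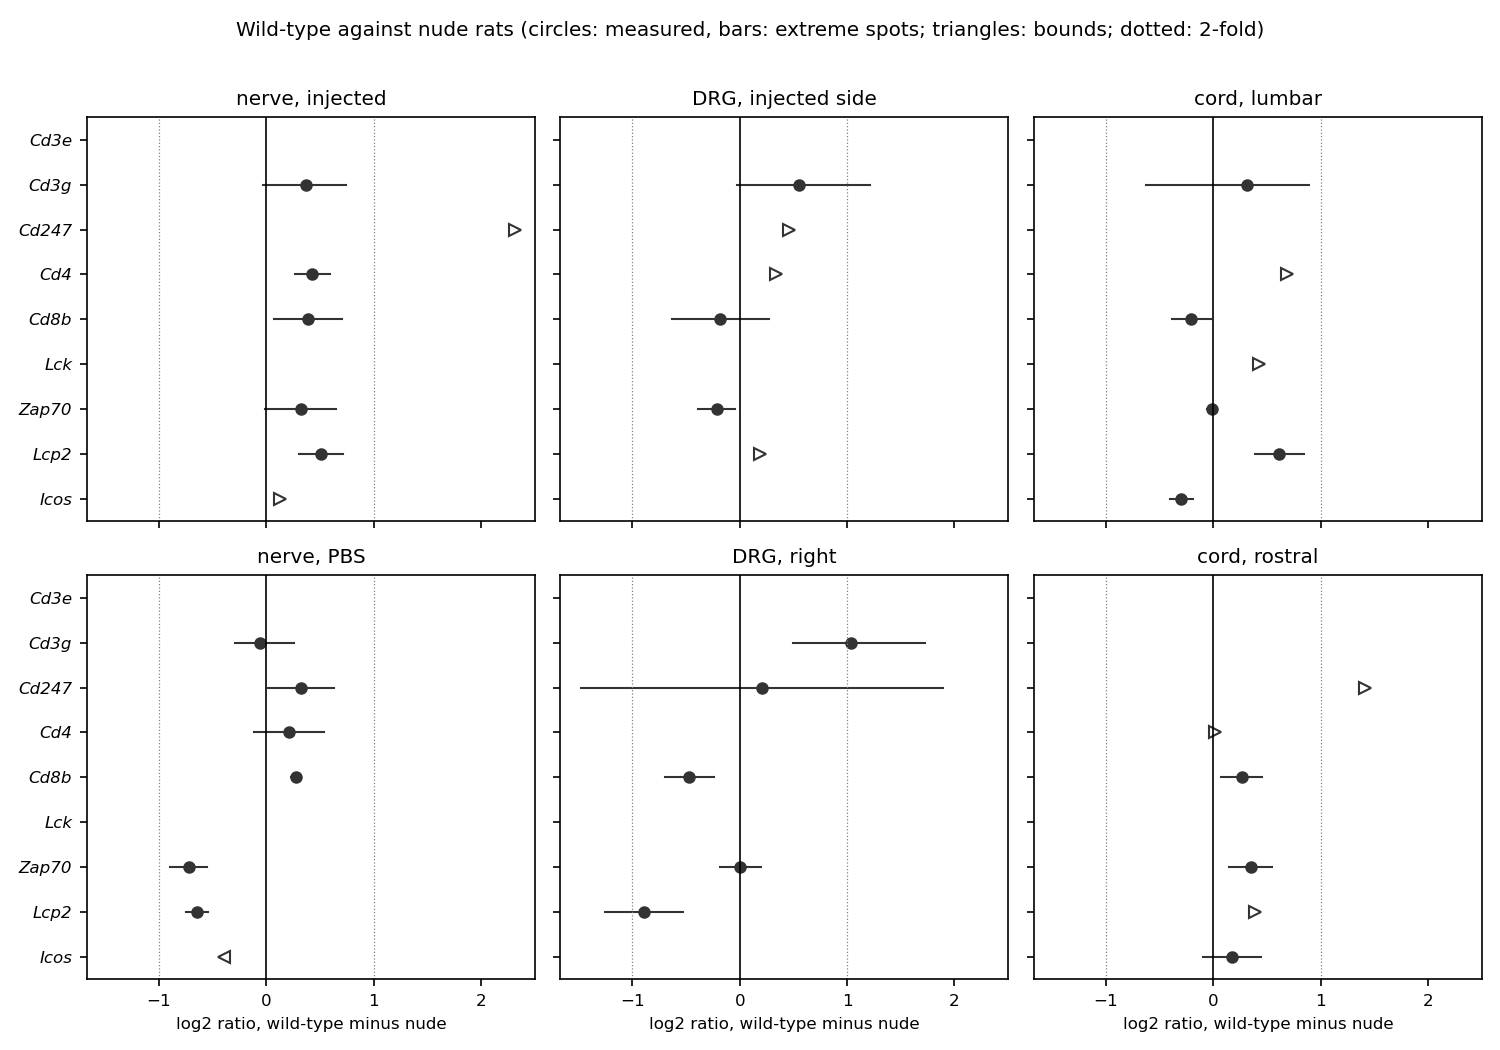
Log2 ratio of wild-type minus nude (horizontal axis, after subtracting each array's median) for each member (vertical axis) in 6 panels, 1 for each tissue position. Circles are ratios with both arrays well above background and bars join the extremes of the spots. Triangles are ratios with 1 array not well above background, and are bounds only where that value was raised to the floor. Dotted lines mark 2-fold. Cd247 in the injected nerve (at least 2.31) is the value farthest from 0, and the members lie on both sides of 0 in the PBS nerve and in DRG.

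The injected side was compared with its control in each rat type. In the wild-type nerve 7 of 8 members had an injected minus PBS ratio above 0, Cd3g being the exception, with a median of 0.79 against −0.05 over all genes. Where both arrays had to be well above background 5 of 6 were above 0, with a median of 0.79 against −0.07. Cd247, Lcp2 and Icos, 3 of the 8, were at least 2-fold higher, against 5.84% of all genes, and 10.7% of all genes were 2-fold apart in either direction. With normexp background correction 7 of 8 were still above 0, the median was 0.18 against −0.00, and none reached 2-fold. In the nude nerve 3 of 6 were above 0 with a median of −0.15 against −0.39, and none was 2-fold apart, against 21.9% of all genes. With cyclic loess the nude median was −0.24 against −0.21, and with the 75th percentile 0.15 against −0.11. Whether the rat types differed in these ratios could not be tested with 1 array a group, and the wild-type comparison shares its injected nerve array with the comparison between rat types.

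In DRG the injected side minus the right side gave a member median of 0.09 against 0.02 over all genes in wild-type rats, with 4 of 7 above 0. None was 2-fold apart, against 1.75% of all genes. With normexp background correction the wild-type median was −0.09 against 0.16, with 0 of 6 above 0, and where both arrays had to be well above background it was −0.07 with 3 of 6 above 0. In nude rats the reported setting gave −0.04 against 0.02, with 1 of 5 above 0 and none 2-fold apart, against 2.52%. In cord the lumbar minus rostral median was 0.06 against −0.07 in wild-type rats, where Cd247 alone of 8 was 2-fold apart, against 2.51% of all genes. Where every spot had to be well above background this median was −0.05. In nude rats the lumbar minus rostral median was 0.54 against −0.07, where Cd3g alone of 4 was 2-fold apart, against 2.6%. Where both arrays had to be well above background the nude median was 0.25 against −0.08, with 3 of 3 above 0.

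**Figure D5:**
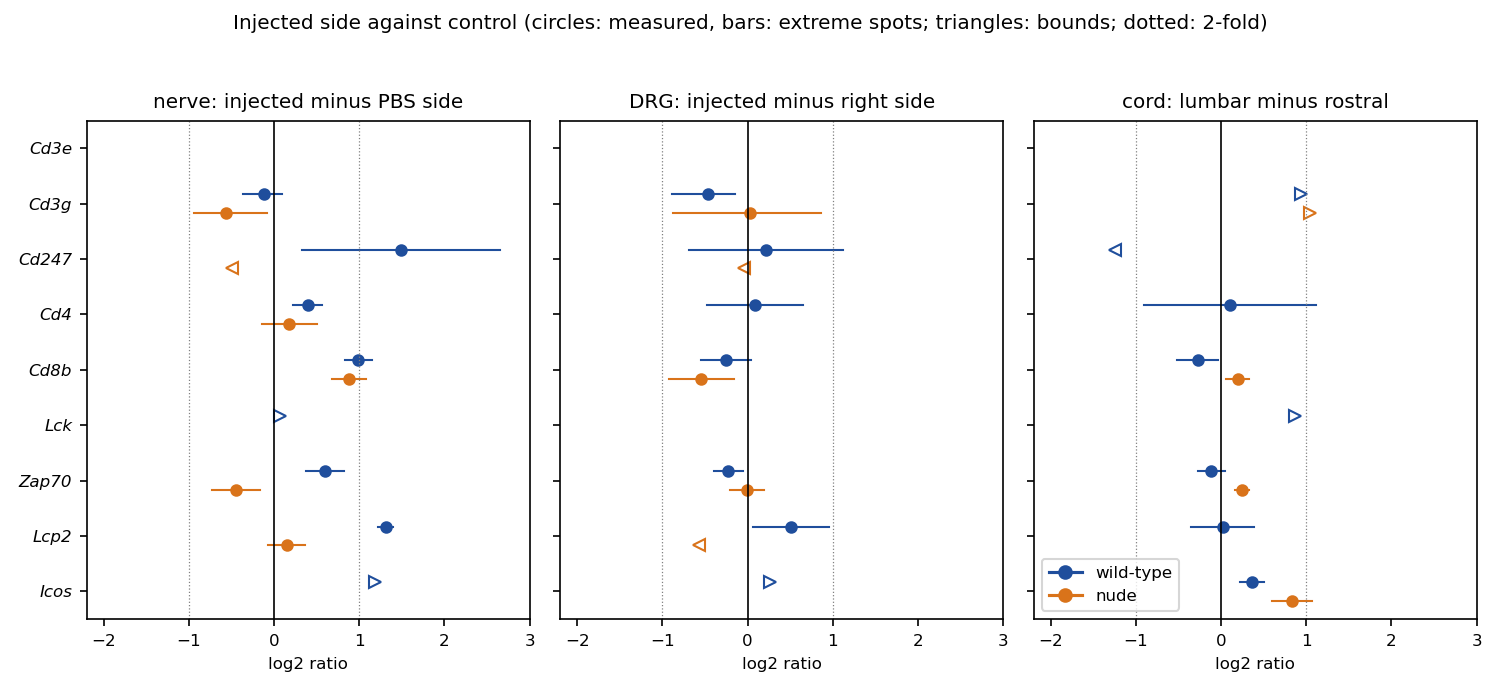
Log2 ratio of the injected or lumbar side minus its control (horizontal axis, after subtracting each array's median) for each member (vertical axis) in nerve, DRG and cord of wild-type (blue) and nude (orange) rats. Circles are ratios with both arrays well above background, bars join the extremes of the spots and dotted lines mark 2-fold. Triangles are ratios with a single array well above background, and are bounds only where the other value was raised to the floor. In nerve Cd247 (1.49), Lcp2 (1.31) and Icos (1.18) lie beyond 2-fold in wild-type rats and no member does in nude rats.

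By tissue, Cd3g, Cd4 and Lcp2 of 8 members had all 4 nerve arrays above the 8 other arrays, against 17.8% of 12587 genes. With the 75th percentile this held for Cd3g alone and with normexp background correction for none. Zap70 had all 4 DRG arrays above the rest, against 3.11% of genes, and not with normexp. No member had all 4 cord arrays above the rest, against 20.4% of genes.

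Of 50 other genes of the T cell receptor pathway and of T cells, 39 were on the array and 30 were well above background on at least 1 array. Among those not detected on any array were the costimulatory receptor Cd28, the T helper factor Gata3 and the inhibitory receptor Ctla4. In the wild-type nerve 22 of 25 had an injected minus PBS ratio above 0, with a median of 0.36, against 0.79 for the members and −0.05 for all genes, of which 45.0% were above 0. Cd8a, Cd2, Vav1, Lef1 and Ptprcap were at least 2-fold higher, against 5.84% of all genes. Vav1, an exchange factor that acts after ZAP-70, was 2.60-fold higher, with signals of 47.6 in the injected and 16.8 in the PBS nerve, and over the alternatives its log2 ratio went as low as 0.41. In the nude nerve 9 of 18 were above 0, with a median of 0.11 against −0.39 for all genes, of which 28.3% were above 0. There Cd3d, Cd6, Tbx21 and Sit1 were at least 2-fold higher, and 2 genes, Lat among them, were at least 2-fold lower. Except for Vav1, Cd6 and Tbx21, the names in these lists were chosen after their values were seen. Cd6, Cd3d and Tbx21 were bright on all arrays, Tbx21 with signals from 40113 to 83329, and over the alternatives their nude nerve log2 ratios went as low as 0.04, 0.26 and 0.31, under 2-fold. In the injected nerve 17 of 22 had a wild-type minus nude ratio above 0, with a median of 0.39, which the members also had, and Cd8a alone was 2-fold apart. Of all genes 64.1% were above 0 in this comparison and 3.57% were 2-fold apart.

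Markers of several other cell types also differed between the injected and the PBS nerve. The summed macrophage, NK cell, B cell and neutrophil levels were higher on the injected side in both rat types. The members' sum was higher there in wild-type rats alone, as were those of the skeletal muscle, mast cell and dendritic cell markers. The mast cell sums were 328 in the injected and 248 in the PBS nerve of wild-type rats, against 209 and 278 in nude rats. For dendritic cell markers they were 2.98 and 2.41 in wild-type rats, against 2.14 and 3.39 in nude rats. In the wild-type injected nerve 17 of 17 macrophage markers had an injected minus PBS ratio above 0, 5 of them at least 2-fold, and their summed level was 4484 times the array median against 2579 in the PBS nerve. In nude rats 11 of 17 were above 0 and the sums were 3428 and 2929. Of the NK cell markers 8 of 10 were above 0 in wild-type and 8 of 9 in nude rats, with summed levels of 37.8 and 26.9 in wild-type and 47.7 and 26.3 in nude rats, and Klrb1, Klrd1, Ncr3 and Ifng were not well above background on any array. Of the neutrophil markers 4 of 4 compared were above 0 in wild-type rats, 3 of them at least 2-fold, with a summed level of 12.8 in the injected against 2.17 in the PBS nerve. S100a8, a calcium-binding protein abundant in neutrophils, was 12.3-fold higher there, with signals of 163 and 12.2. In nude rats 3 of 3 neutrophil markers were above 0, 2 of them at least 2-fold, with 8.28 against 2.36. Of the B cell markers 4 of 5 were above 0 in wild-type rats, 3 of them at least 2-fold, with a summed level of 54.4 against 28.3, and in nude rats 3 of 5, 2 of them at least 2-fold, with 59.4 against 25.0. All 3 red blood cell markers were at least 2-fold higher in the injected nerve of both rat types. Skeletal muscle markers were at least 2-fold higher for 4 of 6 in the wild-type injected nerve, with a summed level of 67.3 against 16.6. In nude rats 3 of 5 were at least 2-fold lower, with 6.95 against 12.6. Schwann cell markers were below 0 for 7 of 7 in both rat types. The summed level of the 9 members was 10.9 and 7.15 in the wild-type injected and PBS nerve, and 7.33 and 7.61 in nude rats. Between rat types in the injected nerve, where Cd247 was 2-fold apart, the wild-type minus nude ratio was above 0 for 16 of 17 macrophage, 8 of 8 mast cell, 6 of 6 skeletal muscle, 3 of 4 neutrophil, 4 of 5 B cell and 3 of 9 NK cell markers. Of all genes 64.1% were above 0 in this comparison. In the right DRG, where Cd3g was 2-fold apart, the B cell genes Cd79b, Fcrla and Spib, 3 of 6 compared, were at least 2-fold higher in wild-type rats. Of all genes 4.31% were 2-fold apart in either direction there. The part of other cells in the members' ratios was not tested.

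The 4 members that were well above background on at least 9 arrays did not share one pattern. Over the 12 arrays the centred level of Cd3g followed that of Lcp2 with a Pearson r of 0.78, that of Cd8b with −0.02 and that of Zap70 with −0.25, and Zap70 and Lcp2 gave −0.39. These values describe 12 arrays of 3 tissues, which share their tissue differences. Among 9745 candidate genes the closest to Cd3g were Ly6g6e (r 0.99), Fgf7 (0.99) and Palmd (0.98). Those closest to Lcp2 were Mix23, Fermt3 and Hhex, each with 0.96. Those closest to Zap70 were Cinp (0.90), Slc16a11 (0.90) and Acot1 (0.89), and those closest to Cd8b were Ccdc89 (0.91), Apoe (0.85) and Krt81 (0.80). No member was among the 3 closest genes of another.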

How the data were processed

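Cy3-labelled total RNA was hybridised to single-colour Agilent rat arrays (SurePrint G3 GE 8x60K). Intensity values are spot signals that the authors extracted with Agilent Feature Extraction, which subtracts local background, without normalization between arrays. The labels name version 10.5 and the file headers 10.7.3.1. The deposited log2 table holds normalized values, whose sorted columns differ by at most 0.00153, and served as an alternative. The other deposited columns are flags set by the software, such as well above background.

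Outlier-flagged spots were dropped, log2 signals of the spots of a probe were averaged, and the array median was subtracted. The brightest probe stood for a gene, named by matching RefSeq accessions to the GRCr8 annotation. The floor of an array was the lowest value among the genes detected on it, each read from its brightest probe. An undetected value below the floor was raised to it, which makes the ratio a bound. An undetected value above the floor was kept as measured, and its ratio is no bound. A gene was compared where it was detected on at least 1 of the 2 arrays, and not where the floor turned the ratio. A difference was called at 2-fold, with no test because each group had 1 array, and the number of arrays limits the precision. Spots of a probe varied with an SD of 0.26 on the log2 scale for dim probes. The t-test of the methods needs replicate arrays and was not run. The calls were also run on simulated pairs of arrays with known changes planted in detected probes. Both arrays of a pair were drawn from 1 real array, so differences in brightness and background between arrays were not covered.

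The members and the gene lists were chosen with earlier results of these data known. By rule the text named all members, the 3 genes most correlated with a member, and genes that check tissue or genotype. Of each other list the rule named at most 4 genes, by their wild-type minus nude ratio in the injected nerve. Further genes of these lists were named outside the rule with their values known. Among them were Cd8a, Cd3d, Cd2, Lef1, Ptprcap, Sit1, Lat, Cd28, Gata3, Ctla4, Klrb1, Klrd1, Ncr3, Ifng and Cd79b. Other settings were centring on the 75th percentile, quantile and cyclic loess normalization, normexp (offset 50, on median spot signals, as mean signals were not used here), the deposited values, the mean over probes, detection on both arrays, no filter, and outlier spots kept. Detection of every spot was added after the data were seen. Tools were R 4.3.3 with limma 3.58.1, and Python 3.11.15 with numpy 2.4.6, pandas 2.3.3 and matplotlib 3.10.9. Some single genes of the other lists are not reported here.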

Additional observations from a re-analysis of the deposited data

Results flagged for a closer look

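Among members well above background on all 4 arrays of a tissue, 4 ratios of the injected or lumbar side over its control pointed in opposite directions in wild-type and nude rats. Each rests on 1 array a group, so the difference was not tested. In nerve the Zap70 log2 ratio was 0.60 for wild-type and −0.44 for nude rats, a difference of 1.04 that lay between 0.32 and 1.02 over the other scalings. In DRG the Cd3g ratio was −0.46 and 0.02, a difference of −0.48, and the nude value is close to 0. In cord the Cd8b ratio was −0.28 and 0.19, a difference of −0.47. Also in cord the Zap70 ratio was −0.12 and 0.25, a difference of −0.36. None of these 8 values reached 2-fold. Of the members not detected on all 4 arrays, Cd247 was also opposite in nerve (1.49 and −0.50 or lower) and in DRG (0.21 and −0.04). Lcp2 was opposite in DRG (0.51 and −0.58). In each the nude value of the injected side was not well above background, so detection fixed the sign of the nude ratio.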

How the results depend on the processing

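The members' signals are near background and each group had 1 array, so no array could be left out, and a floor sets several ratios. No paired analysis was possible because each group held 1 array and the labels carry no replicate numbers. The number of members at least 2-fold apart is given here by setting. Normexp background correction gave 0 in each comparison that held a call, that is wild-type against nude in the injected nerve, right DRG and rostral cord, injected against PBS in the wild-type nerve, and lumbar against rostral in both rat types. Detection on both arrays gave 0 for the injected nerve, the rostral cord and both lumbar comparisons. Detection of every spot, chosen after seeing the data, gave 0 for the rostral cord and both lumbar comparisons. In the right DRG the count was 2 with quantile normalization and the authors' values and 0 with cyclic loess. In the rostral cord it was 2 with no filter. In the nude nerve, with 0 in the report, it was 1 with the 75th percentile, cyclic loess and no filter. For lumbar against rostral it was 2 in wild-type rats with cyclic loess or outlier spots kept, and 0 in nude rats with quantile normalization, cyclic loess and the authors' values. The other 95 counts stayed within 1.5 times the reported one, and no called value changed sign. Of the ratios of single members 657 moved by less than the spot SD of 0.26 and 46 by more. The share of called genes that were higher, over all genes, moved with the scaling. Between rat types it was 65.1% in the injected nerve (78.0% with cyclic loess, 99.4% with normexp), 64.1% in the PBS nerve (85.3% with the 75th percentile, 19.1% with normexp), 47.0% in the left DRG (97.5% with normexp), 65.6% in the right DRG (96.5%), 28.8% in the lumbar cord (15.1%) and 47.3% in the rostral cord (71.4%). Between sides it was 54.7% in the wild-type nerve (65.4% with normexp), 34.9% in the nude nerve (65.9% with the 75th percentile, 0.658% with normexp), 69.3% in the nude DRG (95.7% with normexp), 44.6% in the wild-type cord (24.7%) and 59.3% in the nude cord (73.5%).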
